A study of Homo sapiens with 12 samples.

Results

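The 8 genes described here encode Eph receptors (EPHA2, EPHA4, EPHB2, EPHB3 and EPHB4) and their membrane-bound ligands, the ephrins (EFNA1, EFNB1 and EFNB2). They were chosen by symbol, and each symbol matched 1 of the 63677 Ensembl identifiers in the deposited table. All 8 passed the filter on low values, as did 15489 genes in all. Their expression was followed across 12 polyA RNA-seq libraries of HCT116, an established human colorectal cancer cell line, with 3 libraries for each of 4 genotypes. The cells carried a doxycycline-inducible mCherry (a red fluorescent protein), CR3, scramble or reverse construct, and the series' design text describes the last 3 as CR3 and its variants. Every group, controls included, was treated with doxycycline at 1 ug/ul as labelled, for 48 with no unit given, so no uninduced library entered a comparison. The design text speaks of clones, but not of how many there were per construct, and what the CR3, scramble and reverse sequences are is not given in the sources used here. Nothing in the labels says that replicates came from separate cultures, so p-values measure the spread between these libraries, which may be technical.

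Eph receptors are receptor tyrosine kinases that bind ephrins on a neighbouring cell, and signals run both into the cell with the receptor (forward) and into the cell with the ephrin (reverse). Ephrin-A ligands are held in the membrane by a lipid anchor and bind mainly EphA receptors, whereas ephrin-B ligands cross the membrane and bind mainly EphB receptors. In the intestinal epithelium EPHB2 and EPHB3 are targets of beta-catenin and TCF that help to position cells along the crypt, while EPHB4 and its ligand EFNB2 are best known as the venous and arterial pair of blood vessel development.

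Sequencing depth was 17431106 to 23566201 reads per library. The epithelial genes EPCAM, CDH1, KRT8, KRT18, KRT19, CDX2 and HNF4A were present in all groups, whereas CDH17, CDX1, VIL1 and LGALS4, which mark more differentiated intestinal cells, averaged under 5 normalized reads in each group. The epithelial list of 12 also held KRT20, whose level is not given here, so these genes do not cover the whole list. The CR3 libraries stood apart from the 9 others in markers of other cell types. Of 15 tested genes that mark embryonic kidney and neuron-like cell lines, 9 were higher and 2 lower in CR3 in each of its 3 comparisons. Among all tested genes, 14%, 19% and 16.8% were called higher in CR3 against mCherry, scramble and reverse, and 14.5%, 18.6% and 16.7% lower. Markers with few reads outside CR3 could pass the filter on low values only through CR3, so counts of markers called higher are descriptions. The insulin receptor substrate IRS4 averaged 549.8 normalized reads in CR3 and 4.70 in mCherry, and the neuronal ubiquitin hydrolase UCHL1 averaged 493.5 and 2.54. The summed level of that list of 18 was 7159 to 7717 in CR3, 6584 to 7240 in mCherry, 6279 to 6487 in scramble and 6629 to 7048 in reverse, and 1 of its genes had no read in any library. Mesenchymal markers (5 of 13 tested, 3, 4 and 4 of them higher in CR3 against mCherry, scramble and reverse) summed to 2257 to 2569 in CR3 and 941.6 to 1242 in the other groups. Of 8 tested epithelial markers, 4 (KRT8, KRT18, KRT19 and EPCAM) were lower in CR3 in each comparison, as were 11.1% of all tested genes. The whole epithelial list summed to 45990 to 53270 in CR3 and 55510 to 63190 elsewhere. Leukocyte markers were too low to be tested, with PTPRC and MS4A1 at 0 in every library, and of 2 tested endothelial markers TEK was higher in reverse (212 against 0.56 in mCherry). The part of these differences in the results below was not tested.

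The ephrin EFNB2 and the receptor EPHB4 were the members called lower in CR3 in all 3 of its comparisons, and EPHB2 was higher in CR3 than in scramble. The promoter-proximal sequences of EFNB2 and EPHB4 are shown because these genes moved the same way in the same libraries. The windows, from RefSeq on GRCh38.p14, hold the 250 bases before the annotated start, written 5′ to 3′ on the gene's own strand, the minus strand for both, at chr13:106535663-106535912 for EFNB2 and chr7:100827524-100827773 for EPHB4. Capitals mark each GC box, GGGCGG or its complement CCGCCC.
EFNB2: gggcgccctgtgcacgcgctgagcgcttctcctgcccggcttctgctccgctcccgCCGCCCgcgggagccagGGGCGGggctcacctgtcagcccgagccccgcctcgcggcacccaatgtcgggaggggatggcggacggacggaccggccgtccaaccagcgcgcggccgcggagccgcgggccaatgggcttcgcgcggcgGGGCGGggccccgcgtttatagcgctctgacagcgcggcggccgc
EPHB4: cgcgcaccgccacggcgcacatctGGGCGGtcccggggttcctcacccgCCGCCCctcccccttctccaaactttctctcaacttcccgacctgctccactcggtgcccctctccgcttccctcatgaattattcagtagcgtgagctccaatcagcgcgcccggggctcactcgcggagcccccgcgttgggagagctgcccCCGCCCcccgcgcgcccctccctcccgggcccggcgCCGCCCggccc
Both windows were rich in G and C, at 78.4% with 40 CpG dinucleotides in EFNB2 and 72.8% with 29 in EPHB4, where the median of all 35116 such windows was 58.0% with 11. EFNB2 held 3 GC boxes and EPHB4 held 4, and 42.6% of all windows held at least 1. Windows of the other members ran from 43.2% G and C with 9 CpG (1 EPHA4 window) to 84.8% with 42 (EPHB2). EFNA1 had 73.2% with 24 CpG and 5 GC boxes, so these traits were not particular to EFNB2 and EPHB4. All 8 members matched a window, with 2 windows each for EPHA4 and EPHB2, and each window held at least 1 GC box. None held the TCF/LEF letters CTTTGAT (2.26% of all windows), the EGR letters GCGTGGGCG (0.72%), the AP-1 letters TGACTCA (4.2%) or the E-box CACGTG (6.34%), all searched on both strands. The EGR and GC box letters can share bases with each other. A match describes the letters in the window only.

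Levels were first compared between members per kilobase of annotated exon (GENCODE, GRCh38), since longer transcripts gather more reads. In mCherry, EPHA2 stood highest at 1123 ± 77.9 normalized reads per exon kilobase (SD, n = 3), followed by EPHB4 at 314.5 ± 30.0 and EFNB1 at 209 ± 13.3. EFNA1 (167.7 ± 17.3) and EFNB2 (153.9 ± 6.03) came next and did not differ beyond their spread. Below them were EPHB2 at 94.5 ± 4.32, EPHB3 at 77.4 ± 9.98 and EPHA4 at 19.2 ± 1.37. The order of the group means was the same in all 4 groups. In CR3 EFNB2 lay at 118.9 ± 7.57 per exon kilobase, clear of EFNA1 at 164.3 ± 7.09, and its libraries overlapped those of EPHB2 at 103.4 ± 13.0. Scaled to the longest transcript instead, EFNA1 (221.1) passed EFNB1 (209) in mCherry, so the order of that pair depends on the gene model.

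**Figure D1:**
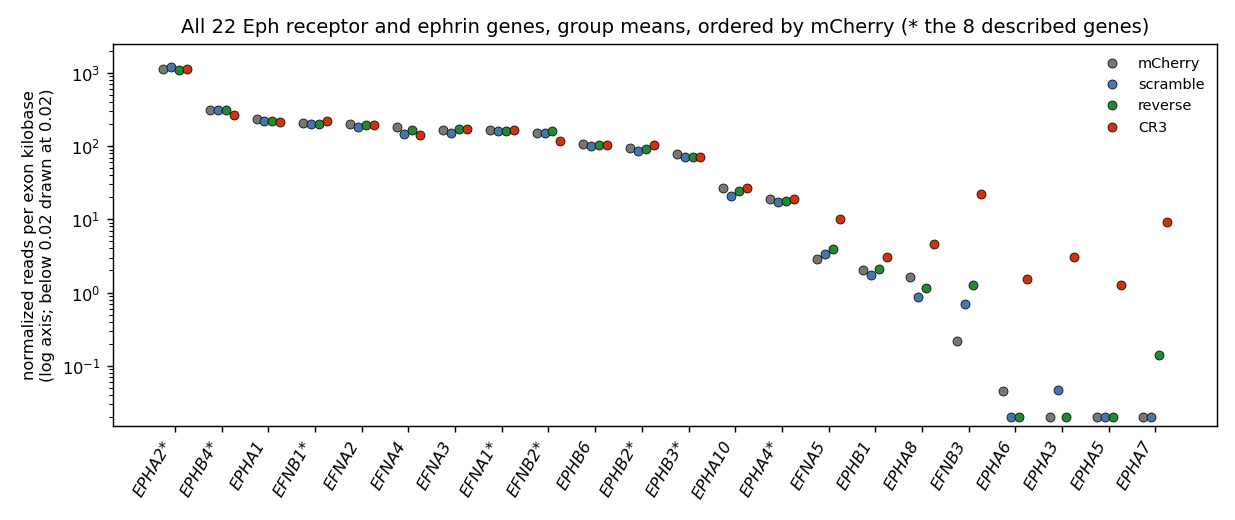
Mean normalized reads per exon kilobase (log axis) of all 22 Eph receptor and ephrin genes in the 4 groups, each point 1 group mean of 3 libraries, ordered by mCherry, with asterisks on the 8 genes described. EPHA2 leads at 1123 in mCherry, and the CR3 points part from the others mainly among the genes at the low end.

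Across the whole table CR3 differed widely from the other groups, so the members were read against that background. In CR3 against mCherry, 0 members were called higher and 2 lower (limma, Benjamini-Hochberg adjusted p under 0.05), and 28.4% of all tested genes were called, 14% higher and 14.5% lower. Against scramble 1 member was called higher and 2 lower, beside 37.6% of all genes (19% higher and 18.6% lower). Against reverse 0 were higher and 2 lower, beside 33.4% of all genes (16.8% higher and 16.7% lower). The members' share of calls was thus near that of all genes in each comparison. Their median log2 fold change was -0.03, -0.01 and 0.03 against mCherry, scramble and reverse, and that of all tested genes was 0.002, 0.013 and 0.007. The 3 comparisons share the CR3 libraries and are not independent of each other. In these bulk samples fewer cells of a type and less RNA per cell cannot be told apart.

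EFNB2 (ENSG00000125266, chr13:106489731-106535662, minus strand) encodes the transmembrane ephrin-B2, which binds EPHB4 among other EphB receptors. Its level was 628.7, 607 and 554.8 normalized reads in CR3 replicates 1 to 3, and 764.6, 805.8 and 746.8 in mCherry. It was 774, 773.1 and 752.2 in scramble and 776, 798.6 and 846.4 in reverse. All 3 CR3 libraries lay below all 9 others, and the closest values were 628.7 in CR3 and 746.8 in mCherry. EFNB2 fell, by mean changes of -22.7% relative to mCherry, -22.1% relative to scramble and -26% relative to reverse. The log2 fold changes were -0.37, -0.36 and -0.44 (SE 0.06 each), with limma adjusted p of 0.000248, 0.000235 and 4.42e-05. Their 95% intervals ran from -0.51 to -0.24, from -0.5 to -0.23 and from -0.57 to -0.3. The 2 groups' libraries did not overlap for 37.4%, 49.6% and 44.4% of all tested genes in these comparisons, and 11.1% of all genes were called lower in all 3. An antisense gene, AL138689.2, shares 1313 exon bases with EFNB2 but had 0 reads in all 12 libraries.

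EFNB1 (ENSG00000090776, chrX:68828997-68842147, plus strand), the other ephrin-B of the members, did not follow EFNB2. CR3 libraries held 761.4, 734.2 and 698.3 normalized reads, and mCherry libraries 710.3, 725.1 and 642.2. Scramble held 662.7, 630.1 and 718, and reverse 678, 701.4 and 622.4. The groups overlapped in each comparison. The CR3 mean of 731.3 ± 31.6 (SD, n = 3) was above the means of the other groups, 667.3 to 692.5, by 0.08, 0.13 and 0.13 on the log2 scale for mCherry, scramble and reverse (SE 0.07, limma adjusted p 0.451, 0.182 and 0.171). The intervals, -0.07 to 0.23, -0.03 to 0.28 and -0.02 to 0.28, left room for a rise but not for a fall of the size seen in EFNB2. Under library totals EFNB1 was called higher against scramble (0.22, adjusted p = 0.0201) and reverse (0.22, adjusted p = 0.0217), where it stood 0.11 and 0.13 above the shifted median of all genes.

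The balance of the 2 ephrin-B ligands within a library does not depend on how libraries are scaled to each other. Per exon kilobase, EFNB1 stood at 1.83, 1.83 and 1.91 times EFNB2 in CR3 replicates 1 to 3. The ratio was 1.41, 1.36 and 1.3 in mCherry, 1.3, 1.23 and 1.45 in scramble and 1.32, 1.33 and 1.11 in reverse. All 3 CR3 libraries lay above the 9 others. EFNB2 alone already lay below the 9 others in CR3, so the ratio in part restates its fall. Single genes had no overlap between the groups in 37.4%, 49.6% and 44.4% of all tested genes against mCherry, scramble and reverse. No such share was computed for ratios of genes. The ratio of the receptor EPHB4 to EFNB2 overlapped between the groups, at 2.28, 1.99 and 2.4 in CR3 and 1.88 to 2.18 elsewhere, and both genes were lower in CR3.

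**Figure D2:**
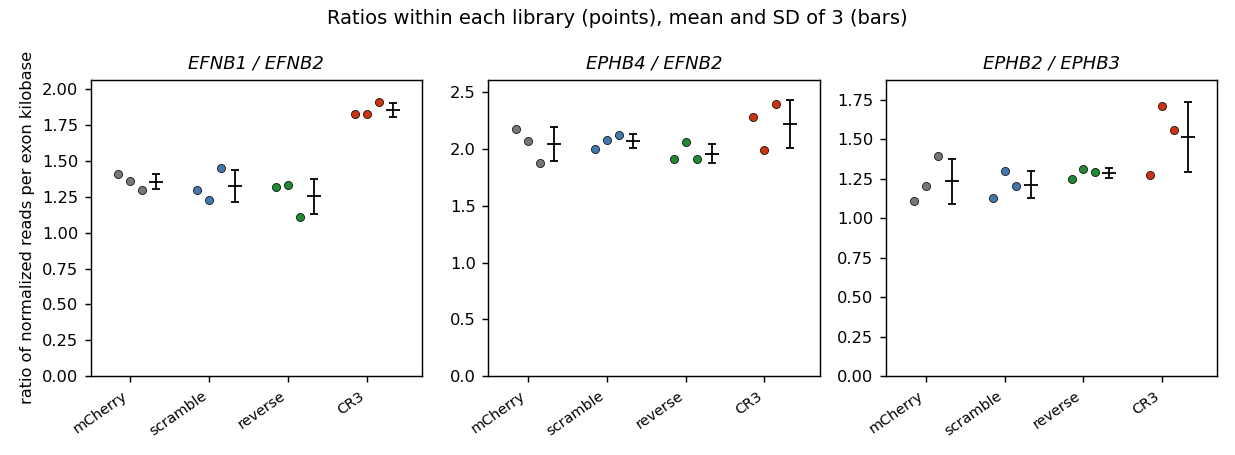
Ratio of normalized reads per exon kilobase for 3 pairs of members in each library (points), with the mean and SD of 3 libraries (bars), axes from 0. EFNB1 over EFNB2 is 1.83 to 1.91 in CR3 and 1.11 to 1.45 in the other libraries, whereas EPHB4 over EFNB2 and EPHB2 over EPHB3 overlap between groups.

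EFNA1 (ENSG00000169242, chr1:155127460-155134857, plus strand) encodes ephrin-A1, the lipid-anchored ligand that binds EPHA2. Its CR3 libraries held 426.9, 396.5 and 428.3 normalized reads, inside the span of the mCherry libraries at 416.8, 473.6 and 387.3. Scramble libraries held 427.8, 383.3 and 410.3, and reverse libraries 390.6, 400.8 and 456.9. No group stood apart. CR3 differed from mCherry, scramble and reverse by -0.03, 0.04 and 0.01 on the log2 scale (SE 0.09, limma adjusted p 0.87, 0.787 and 0.964), with intervals that together ran from -0.21 to 0.22.

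EPHB4 (ENSG00000196411, chr7:100802565-100827521, minus strand), the receptor for ephrin-B2, held 1835.7, 1548.2 and 1708.1 normalized reads in CR3. It held 2132.9, 2137.3 and 1800.8 in mCherry, 1986.3, 2057.6 and 2044.3 in scramble and 1905, 2109.5 and 2077.7 in reverse. CR3 libraries lay below all scramble and reverse libraries, but CR3 replicate 1 lay above mCherry replicate 3. Of all tested genes, 49.6% had no overlap in CR3 against scramble and 44.4% in CR3 against reverse. EPHB4 fell relative to mCherry, scramble and reverse, by mean changes of -16.1%, -16.4% and -16.4%, with log2 fold changes of -0.25, -0.26 and -0.26 (SE 0.07) and limma adjusted p of 0.0122, 0.00744 and 0.00858. The intervals were -0.4 to -0.1, -0.41 to -0.11 and -0.41 to -0.11. The call against mCherry was lost without mCherry replicate 1 (adjusted p = 0.0593), mCherry replicate 2 (0.0586) or CR3 replicate 2 (0.0586). With library totals as the scaling, which raised the median log2 fold change of all genes to 0.091, 0.104 and 0.094, EPHB4 was called in none of the 3 comparisons (adjusted p 0.0854, 0.0626 and 0.062), while its difference relative to that median stayed at -0.25, -0.27 and -0.27. EPHB4 shares 69 exon bases with SLC12A9 on the opposite strand, which had 8095 reads in the 12 libraries where EPHB4 had 24414, and the strand setting of the counting is not given in the sources used here.

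EPHB2 (ENSG00000133216, chr1:22710839-22921500, plus strand) showed higher values in CR3, with a call in 1 of the 3 comparisons. CR3 libraries held 1452.7, 1127.2 and 1301 normalized reads, and mCherry libraries 1159.4, 1244.9 and 1144.7. Scramble held 1092.4, 1085.4 and 1067.7, and reverse 1063.4, 1120.7 and 1227.8. CR3 replicates 1 and 3 lay above all 9 other libraries, while CR3 replicate 2 lay below the mCherry libraries, within the reverse range and above scramble. EPHB2 was 19.6% higher in CR3 than in scramble (log2 fold change 0.25, SE 0.08, limma adjusted p = 0.0167, interval 0.09 to 0.41). The differences from mCherry (0.12, adjusted p = 0.264, interval -0.04 to 0.28) and reverse (0.18, adjusted p = 0.0815, interval 0.02 to 0.34) did not pass. These calls changed with single libraries. The scramble call was lost without CR3 replicate 1 (adjusted p = 0.0988) or scramble replicate 3 (0.0519). Without CR3 replicate 2 EPHB2 was called higher against mCherry (0.0295) and reverse (0.00538) as well, against reverse also without reverse replicate 3 (0.0432), and under library totals in all 3 comparisons (0.0443, 0.00184 and 0.0112 against mCherry, scramble and reverse).

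EPHB3 (ENSG00000182580, chr3:184561784-184582409, plus strand), like EPHB2 a receptor of the intestinal crypt, varied more between CR3 replicates, relative to its mean, than any other member did, at 413.9, 238.6 and 301.9 normalized reads. The mCherry libraries held 378.1, 376 and 298.7, scramble 350.1, 302 and 322.6, and reverse 308.3, 309.8 and 343.6. CR3 held both the highest and the lowest of the 12 values. No comparison of CR3 passed, with log2 fold changes of -0.17, -0.06 and -0.05 (SE 0.15, limma adjusted p 0.441, 0.773 and 0.846) and intervals from -0.49 to 0.15 against mCherry, -0.38 to 0.25 against scramble and -0.36 to 0.27 against reverse. Without CR3 replicate 1 the difference from mCherry was -0.38 and was called lower (adjusted p = 0.0271). The ratio of EPHB2 to EPHB3 per exon kilobase was 1.27, 1.71 and 1.56 in CR3 and 1.11 to 1.39 in the other libraries, so 2 of the 3 CR3 libraries lay above all others.

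EPHA2 (ENSG00000142627, chr1:16124337-16156087, minus strand), a receptor abundant in many carcinomas, made up 55.4% to 61.4% of the summed level of all Eph receptors per exon kilobase in the 12 libraries. Its CR3 libraries held 4884.1, 4533.3 and 4906.3 normalized reads. The mCherry libraries held 4888.4, 4824.8 and 4298.3, scramble 4815.6, 4622.8 and 5480.7, and reverse 4299.5, 4705.6 and 4544.1. The groups overlapped in every comparison. CR3 differed from mCherry, scramble and reverse by 0.03, -0.06 and 0.08 on the log2 scale (SE 0.06, limma adjusted p 0.746, 0.533 and 0.365), with intervals of -0.1 to 0.17, -0.19 to 0.08 and -0.06 to 0.22. These are the narrowest intervals among the members, beside those of EFNB2. Under library totals EPHA2 was called higher against reverse (0.17, adjusted p = 0.044), where its difference relative to the shifted median of all genes was 0.07.

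EPHA4 (ENSG00000116106, chr2:221418027-221574202, minus strand), a receptor that binds ephrins of both classes, was the member with the fewest reads, 1735 over the 12 libraries. It held 162.6, 149.1 and 115.9 normalized reads in CR3, 153.5, 147.2 and 133.4 in mCherry, 124.7, 137.4 and 126.2 in scramble and 140.6, 127.8 and 138.5 in reverse. As with EPHB3, the CR3 libraries held both the highest and the lowest of the 12 values. The log2 fold changes of -0.03, 0.12 and 0.06 (SE 0.13, limma adjusted p 0.885, 0.504 and 0.781) had intervals from -0.32 to 0.25, -0.16 to 0.41 and -0.23 to 0.34. They left room for a fall as large as that of EPHB4 against mCherry, but not against scramble or reverse. Against scramble and reverse they left room for a rise of that size. EPHA4 shares 353 exon bases with the antisense gene AC079834.2, which had 89 reads in all.

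**Figure D3:**
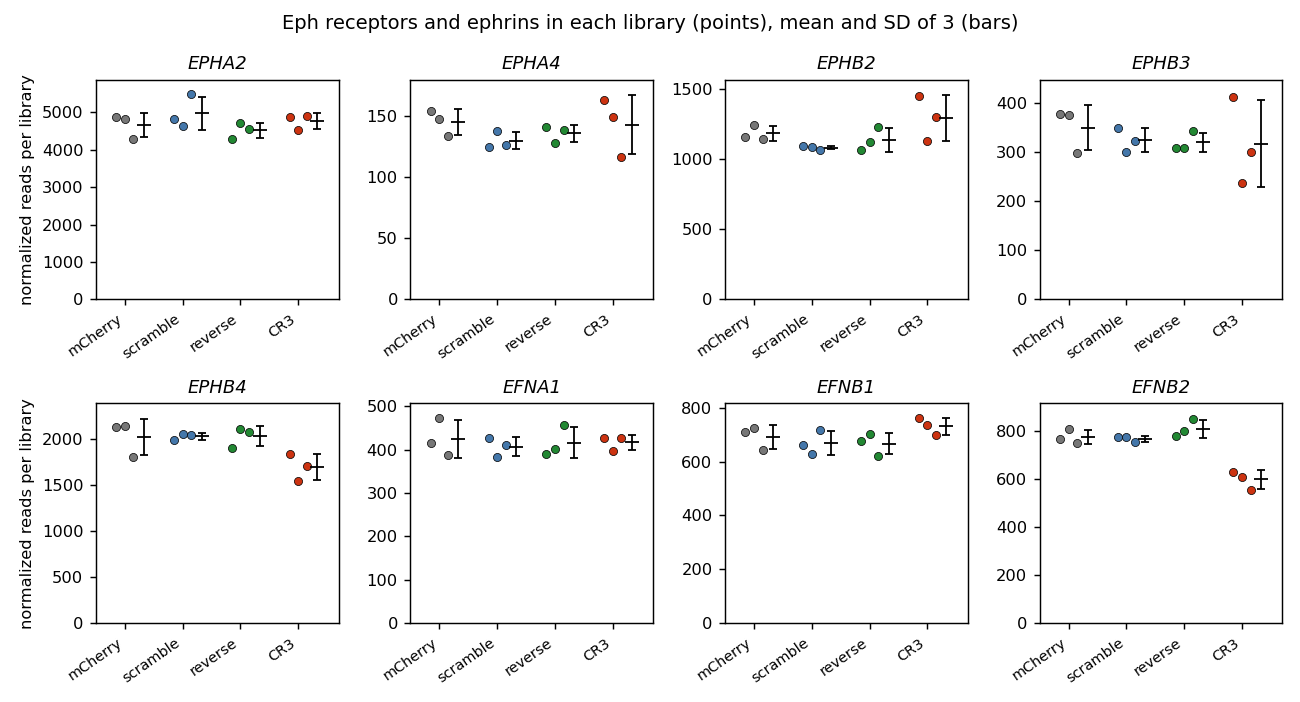
Normalized reads of the 8 members in each library (points, 3 per group), with the mean and SD of each group (bars), each panel on its own axis from 0. EFNB2 in CR3 (554.8 to 628.7) lies below the 9 other libraries, EPHB4 is lower with 1 overlap with mCherry, and EPHB3 and EPHA4 spread most within CR3.

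**Figure D4:**
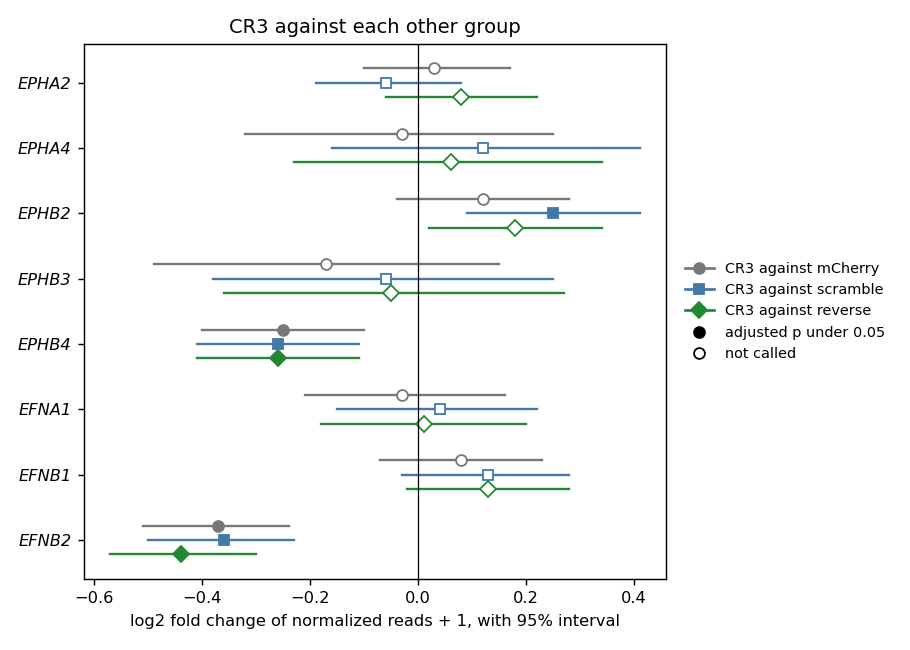
Log2 fold change of normalized reads + 1 for CR3 against mCherry, scramble and reverse, 1 symbol per comparison with its 95% interval, filled where the limma adjusted p is under 0.05. EFNB2 and EPHB4 are filled in all 3 comparisons, at -0.44 to -0.36 and -0.26 to -0.25, and EPHB2 only against scramble at 0.25.

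Between the 3 groups other than CR3 no member passed the test. No member was called in scramble against mCherry, reverse against mCherry or reverse against scramble, where limma called 1.52% (0.762% higher and 0.755% lower), 0.639% (0.258% and 0.381%) and 0.471% (0.291% and 0.181%) of all genes. The members at an unadjusted limma p under 0.05 numbered 0, 0 and 1. The last was EPHA2, lower in reverse than in scramble (log2 fold change -0.14, limma adjusted p = 0.694). The voom fit also called no member in each. The members' medians were -0.05, -0.05 and 0.01. EFNB2 differed by -0.01 between scramble and mCherry (interval -0.14 to 0.12), by 0.06 between reverse and mCherry (-0.07 to 0.2) and by 0.07 between reverse and scramble (-0.06 to 0.21). EPHB4 differed by 0.01, 0.01 and 0 in the same comparisons, with intervals from -0.14 to 0.16 in the first and second and -0.15 to 0.15 in the third. Groups without overlap occurred once for EPHB2, lower in scramble than in mCherry, and once for EFNB2, where the lowest reverse library (776) was above the highest scramble library (774). Of all tested genes, 19.1% and 15.3% had no overlap in those comparisons.

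The members carried most of the receptor signal but about as much ligand signal as the rest of the family. Per exon kilobase they made up 80.7% to 84.3% of the summed level of the 14 Eph receptors and 47.6% to 52.5% of that of the 8 ephrins in the 12 libraries. Among the 9 other receptors, EPHA1 (1030 normalized reads in CR3 and 1100 in mCherry) and the kinase-inactive EPHB6 (548.7 and 571.5) were not called in any CR3 comparison. The other ephrins EFNA2, EFNA3 and EFNA4 were not called either, at 182.3, 331.2 and 182 in CR3 and 190.9, 322.6 and 230.7 in mCherry. EFNA4, which lies beside EFNA3 and EFNA1 on chromosome 1, came closest against mCherry (log2 fold change -0.34, limma adjusted p = 0.0546). EFNA4 was called lower there in the voom fit (adjusted p = 0.0373), under upper quartile scaling (0.0425), with a filter of 50 reads (0.0436), without mCherry replicate 3 (-0.45, 0.0143) and without CR3 replicate 1 (-0.45, 0.0136). EPHA10 was higher in CR3 than in scramble only (218.3 against 168, log2 fold change 0.38, adjusted p = 0.0322), with overlapping libraries, and was no longer called without CR3 replicate 1 (0.0997), CR3 replicate 3 (0.058), scramble replicate 2 (0.141) or scramble replicate 3 (0.101).

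Several family genes with little or no signal in the other groups had more reads in CR3. The receptors EPHA3, EPHA7 and EPHA8 of the A class passed the filter on low values only through CR3, so being tested already required them to be high there, and their values are given as a description with no test. EPHA7 held 55.1, 72.8 and 79.7 normalized reads in CR3, no read in mCherry and scramble and 1.04, 2.05 and 0 in reverse. With a floor of 3 reads per library its CR3 level was at least 23.4-fold higher than that of mCherry and at least 25-fold higher than that of scramble, and against reverse the ratio of reads was 70 (95% interval 23.6 to 342, exact, counting error only). EPHA3 held 24.3, 15.8 and 21.3 in CR3 and 1 read in the 9 other libraries together, at least 6.92-fold above mCherry and at least 6.9-fold above reverse. The ephrin EFNA5, a ligand of EphA receptors in the nervous system, passed the filter in every group and was called higher in all 3 comparisons, as were 10.9% of all genes. It averaged 57.2 in CR3 and 16.4, 18.9 and 22.6 in mCherry, scramble and reverse (log2 fold changes 1.73, 1.55 and 1.32, limma adjusted p 5.56e-05, 0.000127 and 0.000667). EPHA8 averaged 24.8 in CR3 and 8.75, 4.66 and 6.27 in mCherry, scramble and reverse. Its log2 differences of 1.5, 2.23 and 1.81 shrank to 0.51, 1.24 and 0.82 when decimal marks were placed without the group labels.

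Further genes of the family had reads almost only in CR3 and stood outside the main test. The ephrin EFNB3 held 65.4, 74.6 and 74.4 normalized reads in CR3 and 0 to 8.1 in the 9 other libraries. It was left out because the decimal mark of 1 library (reverse replicate 1) was ambiguous, and it would have passed the filter only through CR3, so no test is given. EPHA5, with 10.3, 18.4 and 8.5 in CR3 and no read elsewhere, and EPHA6, with 11.2, 10.5 and 7.44 in CR3 and 1 read elsewhere, were below the filter and were singled out after their values were seen. For EPHA5 the CR3 level was at least 4.2-fold higher than that of mCherry. EPHB1, also ambiguous in 1 library, was not confined to CR3. It held 12.8 to 29.9 normalized reads in CR3, 9.25 to 20.9 in mCherry, 8.41 to 14.9 in scramble and 8.1 to 21.9 in reverse. It was not called when kept (limma adjusted p 0.31, 0.152 and 0.304). EFNB3, EPHA5 and EPHA6 were high in the same 3 libraries as the embryonic kidney and neuron-like markers IRS4 and UCHL1 given above. Genes named for reads mainly in CR3 share those libraries by choice, so this is a description only. The part of other cells in these libraries was not tested. Even in CR3 the mean of EFNB3 per exon kilobase (22.2) was above that of no member but EPHA4 (18.9). EPHA5 (1.26) and EPHA6 (1.55) stayed below every member there, as the plot of all 22 genes shows.

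**Figure D5:**
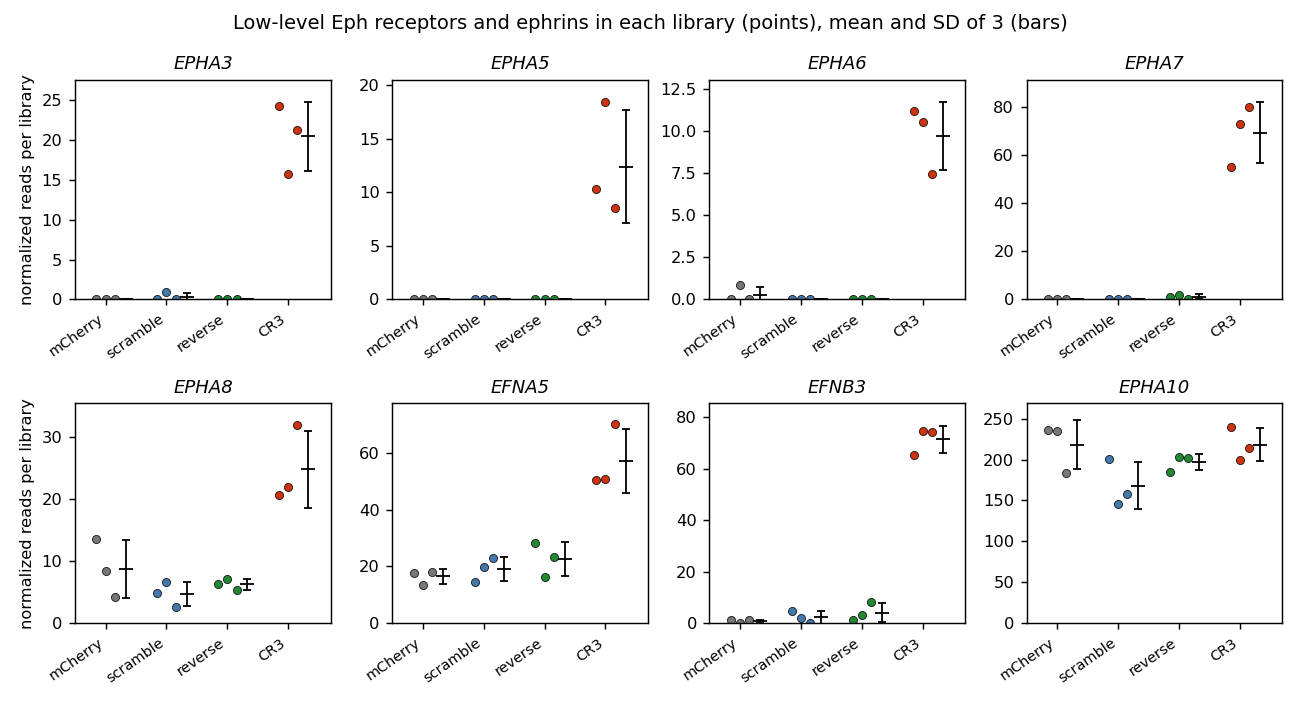
Normalized reads of 8 further family genes in each library (points, 3 per group), with the mean and SD of each group (bars), each panel on its own axis from 0. EPHA3, EPHA5, EPHA6, EPHA7 and EFNB3 are at or near 0 outside CR3, EFNA5 and EPHA8 are low but present there, and EPHA10 overlaps between groups.

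Genes that act downstream of Eph receptors and ephrins were read from 3 lists. Each count stands beside the 28.4%, 37.6% and 33.4% of all tested genes called in CR3 against mCherry, scramble and reverse. Of all tested genes, 14%, 19% and 16.8% were called higher and 14.5%, 18.6% and 16.7% lower. The counts below lie on both sides of these shares, and whether a list differs from them was not tested. Of 19 tested receptor adaptors and phosphatases, 2 were higher and 2 lower in CR3 against mCherry, 3 and 1 against scramble and 2 and 2 against reverse, with medians of -0.05, -0.02 and 0.01. The junction scaffold AFDN rose in all 3 comparisons (log2 fold changes 0.27, 0.29 and 0.2, limma adjusted p 0.00319, 0.00119 and 0.0186), though not against reverse without CR3 replicate 2 (0.0812), CR3 replicate 3 (0.0515) or reverse replicate 2 (0.0758). Against mCherry the EphA adaptor ANKS1A rose (0.18) and the adaptors GRB7 (-0.35) and GRB10 (-0.18) fell. Of 8 Src, Abl and focal adhesion kinases, 1, 1 and 1 were higher and 2, 4 and 3 lower. The Src family kinase FYN rose in all 3 comparisons (637.9 normalized reads in CR3 and 522.7, 433.4 and 471.8, log2 fold changes 0.29, 0.56 and 0.44, adjusted p 0.00787, 1.62e-05 and 0.000225). LYN, of the same family, fell (-0.16, -0.22 and -0.21), as did the focal adhesion kinase PTK2 (-0.19, -0.13 and -0.16).

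The partners of ephrin-B reverse signalling counted 2, 4 and 2 of 10 higher and 1, 1 and 1 lower in CR3 (medians 0.07, 0.18 and 0.12). These counts stand beside the 28.4%, 37.6% and 33.4% called among all genes, with no test of the difference. GRIP1, a PDZ scaffold that binds the ephrin-B tail, averaged 51.9 normalized reads in CR3 and 12.4, 14.2 and 12.2 in mCherry, scramble and reverse (log2 fold changes 1.96, 1.81 and 2, limma adjusted p 2.22e-05, 4e-05 and 1.58e-05). RGS3, a G protein regulator that also binds ephrin-B, averaged 576.6 in CR3 and 795.5, 873.1 and 819.6 and fell in all 3 (log2 fold changes -0.46, -0.6 and -0.51, adjusted p 9.37e-05, 4.03e-06 and 3.06e-05). The phosphatase PTPN13 rose against mCherry (0.17) and scramble (0.31). Of the 10 genes of the 3 lists named for their call against mCherry, 5 lost it when some single library was left out (ANKS1A, GRB7, GRB10, LYN and PTPN13) and 4 lost it under library totals (GRB7, GRB10, LYN and PTK2). Of the 8 of them also called against scramble, 2 were lost without some library (ANKS1A and PTK2) and 2 under library totals (PTK2 and LYN). Of the 8 also called against reverse, 3 were lost without some library (AFDN, GRB7 and PTK2) and 4 under library totals (GRB7, GRB10, PTK2 and LYN).

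The gene whose profile over the 12 libraries was most like that of each member was found from the root mean square difference of centred log2 values among 11030 genes with at least 100 normalized reads on average. For EFNB2 it was the lipoprotein receptor LRP8 (difference 0.05, Pearson r 0.96), with the ribosomal protein gene RPS18 at the same rounded values. For EPHB4 it was the translation elongation factor EEF2 (0.034, r 0.98). The keratin KRT8 and the ribosomal protein gene RPLP1 followed, each at 0.035 and r 0.97. EPHB2 was nearest to DCAF11 (0.042, r 0.95) and EPHB3 to HYAL1 (0.078, r 0.92). EPHA2 was nearest to PPP4C (0.04, r 0.9), EPHA4 to BRD3 (0.069, r 0.88), EFNA1 to FBXO42 (0.044, r 0.88) and EFNB1 to CXCL16 (0.046, r 0.86). These libraries share their groups and scaling, and the genes were picked as the nearest of many, so the values are descriptions only.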

How the data were processed

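PolyA RNA of 12 libraries was sequenced, and STAR and featureCounts, FastQC and MultiQC, Trim Galore, Salmon, GATK, edgeR and DESeq2 are named with build GRCh38 per the submitters' processing notes. Versions, annotation and strand setting: not given in the sources used here. The deposited values are other than raw counts: they are gene read counts that, in each library, the authors divided by its size factor, with most decimal marks lost, as found from the values. All 265152 non-zero cells (100.0%, tolerance 0.0001 reads) were whole multiples of 1 read at some power of 10. The power was chosen per gene by likelihood, using group labels, with settings tuned on simulated data, where falls of around 10-fold were recovered less often. In 1671 cells (0.63%) another power came within a likelihood ratio of 20. No member had such a cell. Genes with at least 10 reads in at least 3 libraries numbered 16164, and 675 with an ambiguous cell were left out.

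Normalized reads are reads over the deposited size factor. limma (3.58.1, R 4.3.3) with a mean-variance trend was fitted to log2(normalized reads + 1) of all 15489 genes and 4 groups, two-sided, with Benjamini-Hochberg adjustment and a threshold of 0.05. Fold changes on this scale understate those of low genes. Tests were checked on simulated counts. The 6 comparisons were refitted under 23 alternatives each. Further family genes were named if called or at 50 normalized reads or more, and up to 4 genes per list and direction by smallest p in CR3 against mCherry. The members and lists were chosen with earlier results of these data known. In every pair of replicates the counts differed beyond sampling noise, with a chi-square of 2.73 to 9.76 per degree of freedom. Some pathway genes are not reported here.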

Additional observations from a re-analysis of the deposited data

How the results depend on the processing

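EFNB2 stayed lower and called in CR3 against each other group under all 23 alternatives, with log2 fold changes of -0.41 to -0.28 against mCherry, -0.4 to -0.27 against scramble and -0.47 to -0.35 against reverse. Of the members called, leaving out 1 library gave 1 to 3 against mCherry (1 without mCherry replicate 1 or 2, where EPHB4 was lost), 2 to 3 against scramble and 2 to 3 against reverse. Library totals as the scaling gave 4 against reverse (EFNB2 lower, EPHA2, EPHB2 and EFNB1 higher) and left out EPHB4. That scaling moved the split of all calls from 2164 higher and 2240 lower to 3565 and 1264 against mCherry, to 4495 and 1793 against scramble and to 4047 and 1545 against reverse. Of all genes, 4404 were called against mCherry, but 2751 without CR3 replicate 3. Of 235, 99 and 73 calls among the 3 groups other than CR3, single left-out libraries gave 82 to 539 in scramble against mCherry, 52 to 143 in reverse against mCherry and 44 to 78 in reverse against scramble. No called value changed sign, but differences that were not called did, such as EPHB3 against mCherry (-0.38 to 0.02) and reverse (-0.25 to 0.14) and EPHA2 against scramble (-0.11 to 0.04). The cause of these shifts was not tested. Same-numbered libraries did not deviate together (correlations -0.126 to 0.064 over 18 pairs of libraries, against -0.197 to 0.191 for other numbers), so the numbers were not taken to pair them, and with the replicate block 2, 3 and 2 members were called against mCherry, scramble and reverse. The block gave 4022 calls over all genes against mCherry where the fit without it gave 4404, and 142 in scramble against mCherry where it gave 235. Refits of the other family and pathway genes were added after seeing the data. Depth limits EPHA4 and the family genes under 100 normalized reads most.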
